A study of Mus musculus with 4 samples.

Results

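Neurotrophic factors are secreted proteins that keep neurons alive and shape their branches and synapses, and neurons release some of them in response to activity. The set described here held 10 genes of 4 such systems, 5 ligands and 5 receptors. Every probe set whose only annotated gene symbol was one of these was taken, which gave 11 of the 12488 probe sets on the array, 5 for ligands and 6 for receptors. They covered 9 of the 10 genes. No probe set analysed here carried the symbol of the ligand gene Ntf3 (neurotrophin-3) alone, so Ntf3 has no value.

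The tissue was visual cortex of wild-type C57Bl6 mice. All 5 mice of the study lived in darkness from birth, lost 1 eye on postnatal day 42 and saw normal light-dark days for the next 4 days, until the tissue was taken on postnatal day 46. Deprived cortex lay contralateral to the removed eye and non-deprived cortex ipsilateral to it, so both groups shared the dark rearing, the surgery and the first light. RNA was pooled within each side, and 2 arrays were made per group. The sources used here do not say how the 5 mice were spread over the arrays, and p-values therefore measure the spread between these 4 arrays, which may be technical. The arrays gave 1 MAS5 signal per probe set in arbitrary units, and 2 arrays per group limit the precision.

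Brain-derived neurotrophic factor (Bdnf) and neurotrophin-3 are neurotrophins, which act through the tyrosine kinase receptors TrkB (Ntrk2) and TrkC (Ntrk3). In visual cortex Bdnf is known as a gene that light and neuronal firing induce, and its protein promotes the maturation of inhibitory circuits. The ligands of the GDNF family, among them GDNF and persephin (Pspn), bind GFRalpha co-receptors held in the membrane by a lipid anchor, which then engage the kinase Ret. GFRalpha1 (Gfra1) prefers GDNF and GFRalpha2 (Gfra2) prefers neurturin. CNTFRalpha (Cntfr) is the ligand-binding receptor subunit for ciliary neurotrophic factor and signals through gp130 and the LIF receptor. FGF1 (Fgf1) is a fibroblast growth factor of neurons that acts through FGF receptors.

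RefSeq (GRCm38.p6) gave 20 transcription starts for 7 of the 10 genes, 7 of them for Bdnf and 1 for Pspn. Bdnf has several alternative first exons, each with its own promoter, and different stimuli use them to different degrees. The 250 bases upstream of the second and of the third Bdnf start, in order along chromosome 2, are shown because only these among the Bdnf starts held a match to the motifs searched, and those upstream of the Pspn start because Pspn was the 1 gene of the set called by the fit. Capitals mark the matches.

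Bdnf, the second start, chr2:109676782-109677031, + strand: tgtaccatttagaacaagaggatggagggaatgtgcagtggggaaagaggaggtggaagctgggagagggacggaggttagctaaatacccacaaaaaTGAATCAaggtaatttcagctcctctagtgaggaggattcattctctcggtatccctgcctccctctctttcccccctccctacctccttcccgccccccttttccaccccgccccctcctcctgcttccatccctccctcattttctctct
Bdnf, the third start, chr2:109692186-109692435, + strand: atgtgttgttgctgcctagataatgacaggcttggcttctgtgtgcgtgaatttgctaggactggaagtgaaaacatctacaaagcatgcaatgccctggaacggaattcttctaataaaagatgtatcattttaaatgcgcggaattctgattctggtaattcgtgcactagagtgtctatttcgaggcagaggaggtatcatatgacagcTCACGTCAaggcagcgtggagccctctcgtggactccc
Pspn, chr17:57000106-57000355, - strand: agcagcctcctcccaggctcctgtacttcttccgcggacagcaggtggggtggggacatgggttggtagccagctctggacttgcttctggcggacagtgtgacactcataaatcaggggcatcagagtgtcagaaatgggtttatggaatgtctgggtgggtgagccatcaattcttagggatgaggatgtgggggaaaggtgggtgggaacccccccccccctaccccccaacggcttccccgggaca

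The motifs were searched on both strands in windows of 300 bases around each start. The cAMP response element TGACGTCA, to which CREB binds, was in none of the 20 windows of the set and in 1.79% of 32851 windows of all genes. Its variant TCACGTCA began 38 bases upstream of the third Bdnf start and was in 0.441% of all windows. The half-site TGACG, which overlaps both, was in 2 windows of the set, that of Bdnf and one of Gdnf, and in 20.8% of all. The pattern TGANTCA is a loose form, with any base in the middle, of the AP-1 motif of Fos and Jun proteins. It began 152 bases upstream of the second Bdnf start, as TGAATCA, and was in 7.81% of all windows. Whether these proteins bind this match was not tested. The Pspn window held none of these letters. The array data do not show which Bdnf start was in use, because the position of the probes was not analysed here.

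Among the ligands, persephin and Bdnf were lower on both deprived arrays than on both non-deprived arrays, and only persephin passed after adjustment. Gdnf and Fgf1 overlapped between the groups. Pspn (probe set 100298_at) had signals of 153.4 and 123.6 on deprived arrays 1 and 2, and of 771 and 687 on non-deprived arrays 1 and 2. Both deprived arrays were thus far below both non-deprived arrays, with means of 138.5 ± 21.1 and 729 ± 59.9 (SD, n = 2 per group). The log2 fold change of deprived minus non-deprived was -1.99 ± 0.31 (SE), with a 95% interval from -2.66 to -1.31 and an adjusted p of 0.039 in limma. Here and below, fold changes were computed after adding 60.6 to each signal, which shrinks the ratio between the signals of a dim probe set. On that scale Pspn was 3.97-fold lower, and the means of its signals differed 5.26-fold. Replicates differed by 0.22 in the deprived and 0.15 in the non-deprived group on the log2 scale, less than the median of 0.30 for probe sets of this brightness. It had the second-lowest log2 fold change of the 7458 probe sets tested. Each deprived array set against each non-deprived array gave -1.96, -2.18, -1.80 and -2.02. The call was lost with a stricter signal filter at the 60th percentile (adjusted p = 0.067 in limma), without non-deprived array 1 (adjusted p = 0.22) or non-deprived array 2 (0.24), with quantile normalization (0.11) and without limma's mean-variance trend (0.62), while the log2 fold change stayed between -2.21 and -1.63 in the 12 alternatives run. No other probe set carried the symbol Pspn alone.

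Bdnf, the ligand of TrkB, was measured by probe set 102727_at. It had signals of 1098 and 1306 on the deprived arrays and 1848 and 1924 on the non-deprived arrays, and the groups did not overlap. The replicates lay closer together than the groups, with means of 1202 ± 147 and 1886 ± 53.7 (SD, n = 2 per group). The log2 fold change was -0.63 ± 0.18 (SE), with a 95% interval from -1.02 to -0.24. This was the 66th smallest p of the 7458 probe sets, and it did not pass after adjustment in limma (adjusted p = 0.46). In the 12 alternatives the log2 fold change of Bdnf ranged from -0.75 to -0.51 and none called it.

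Gdnf, which binds GFRalpha1, had a pair of probe sets. At the brighter, 92738_at, signals were 332 and 172.9 on the deprived arrays and 259.1 and 298 on the non-deprived arrays, so that 1 deprived array lay above both non-deprived arrays and 1 below. The log2 fold change was -0.16 ± 0.39 (SE, adjusted p = 0.999 in limma), and its 95% interval from -1.02 to 0.69 leaves room for a change of either sign. At the dimmer, 161598_at, signals were 98.7, 76.4, 160.9 and 32.7 in the same order of arrays, and its mean lay under the signal filter of 142.9, so it was not tested. The non-deprived arrays there stood on either side of the deprived ones.

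Fgf1, at probe set 100494_at, had signals of 299.3 and 51.7 on the deprived arrays and 299.7 and 284.3 on the non-deprived arrays. A single low value on deprived array 2 made the difference between the groups. The deprived arrays differed from each other by 1.68 on the log2 scale, where 90% of replicate differences among the 500 probe sets nearest in brightness were at most 1.2. The log2 fold change was -0.81 ± 0.54 (SE, adjusted p = 0.993 in limma) and 0.030 without deprived array 2.

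**Figure D1:**
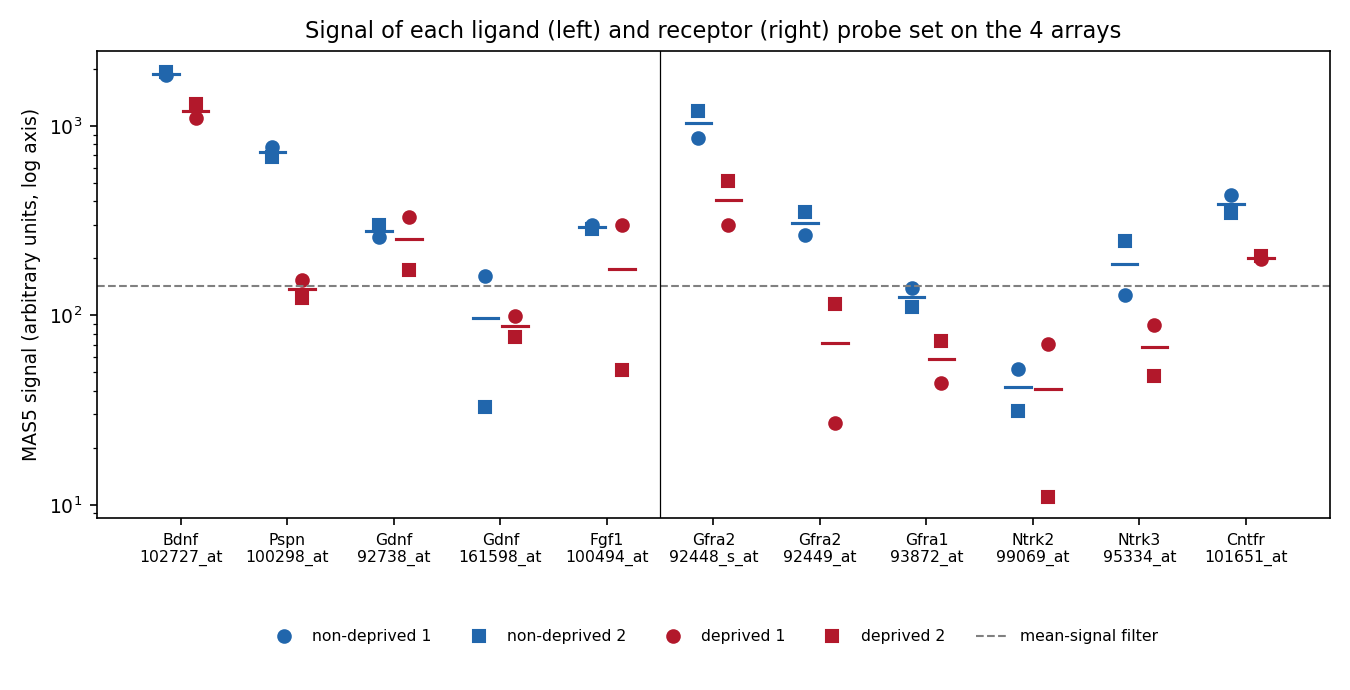
MAS5 signal in arbitrary units, on a log axis, of the 11 probe sets on each of the 4 arrays (circles for replicate 1, squares for replicate 2, short lines for group means, a dashed line for the mean-signal filter of 142.9). For Bdnf, Pspn, both Gfra2 probe sets, Gfra1, Ntrk3 and Cntfr both deprived arrays (red) sit below both non-deprived arrays (blue), whereas Fgf1 has a single low deprived array at 51.7.

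Among the receptors, the co-receptor genes Gfra2 and Cntfr were lower on both deprived arrays at each of their tested probe sets, and none passed after adjustment. Gfra2 had a pair of probe sets. At 92448_s_at signals were 297.9 and 515 on the deprived arrays and 863 and 1200 on the non-deprived arrays. At 92449_at they were 27.1 and 115.2 on the deprived arrays and 266.2 and 350 on the non-deprived arrays. The deprived arrays differed from each other by 0.68 and 1.00 on the log2 scale at these probe sets, where 90% of replicate differences at their brightness were at most 0.64 and 1.25. Both probe sets put the 4 arrays in the same order, with deprived array 1 lowest and non-deprived array 2 highest. The suffix _s_at marks, in the naming of the array's maker, a probe set whose probes match more than 1 of the sequences the array was designed on, and the probe sets may share parts of the transcript, so they are not independent checks.

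The log2 fold change of Gfra2 was -1.25 ± 0.28 (SE) at 92448_s_at, with a 95% interval from -1.85 to -0.64 and an adjusted p of 0.20 in limma. At 92449_at it was -1.56 ± 0.56 (SE), with a 95% interval from -2.78 to -0.34 and an adjusted p of 0.69. With the replicate number as a block, 92448_s_at had an adjusted p of 0.017 in limma. Together with Pspn this made 2 of the 7 tested probe sets of the set that were lower with the block, against 0.523% of the 7458. That fit had 1 residual degree of freedom, and its p-values rest mostly on the variance prior. Without the block, the log2 fold change at 92448_s_at was -0.91 without deprived array 1 and -1.59 without deprived array 2. It was -1.47 without non-deprived array 1 and -1.02 without non-deprived array 2. Probe set 92449_at passed in none of its alternatives. The size at 92448_s_at ran from -1.59 to -0.91 over 12 alternatives, and that at 92449_at from -2.06 to -1.06 over 11.

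Cntfr, at probe set 101651_at, had signals of 198.1 and 205.1 on the deprived arrays and 431 and 347 on the non-deprived arrays. The deprived arrays lay close together and below both others, with means of 201.6 ± 4.93 and 389 ± 58.9 (SD, n = 2 per group). The log2 fold change was -0.77 ± 0.34 (SE), with a 95% interval from -1.52 to -0.02 and an adjusted p of 0.91 in limma.

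The other receptor probe sets were too dim to pass the filter and were described without a test. Gfra1 (93872_at), the co-receptor for GDNF, had signals of 43.9 and 73.5 on the deprived arrays and 139.9 and 110.6 on the non-deprived arrays, with no overlap. Ntrk3 (95334_at), the TrkC gene, had 88.5 and 47.9 on the deprived arrays and 127.7 and 246.2 on the non-deprived arrays, also without overlap. Ntrk2 (99069_at), the TrkB gene, had 70.8 and 11 on the deprived arrays and 52 and 31.4 on the non-deprived arrays, and there the groups overlapped. The means of the signals differed 2.13-fold for Gfra1, 2.74-fold for Ntrk3 and 1.02-fold for Ntrk2. For probe sets as bright as Ntrk3 the median difference between replicates was 0.54 on the log2 scale and the 90th percentile 1.39, while the groups differed by 0.92. For Gfra1 the groups differed by 0.65, against a median of 0.56 and a 90th percentile of 1.32 in probe sets of its brightness. In both cases the difference between the groups lay under that 90th percentile. Group differences are between means of 2 arrays and replicate differences between single arrays, so the comparison is rough.

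**Figure D2:**
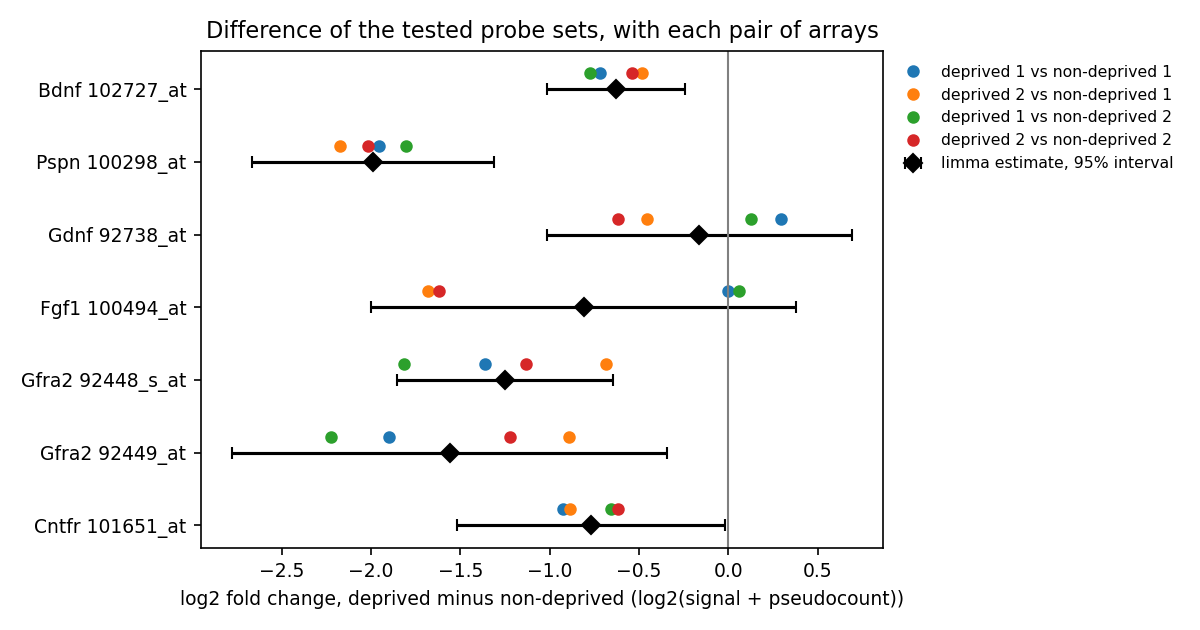
Log2 fold change of deprived minus non-deprived for the 7 tested probe sets (black diamonds, bars for the 95% interval from limma) with the difference in each of the 4 pairs of arrays (coloured points). The points of Pspn lie between -2.18 and -1.80, and those of Fgf1 split by deprived array.

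Over all 11 probe sets, 7 had both deprived arrays below both non-deprived arrays and 0 had them above. That was 63.6%, where 14.2% of 12422 probe sets other than controls were lower in this way and 14.9% higher. At least 1.5-fold lower in each of the 4 pairs of arrays were 4, namely Pspn, both Gfra2 probe sets and Cntfr, against 1.42% of the 12422, and 0 were higher by this rule, against 0.684% of the 12422. The 7 of the 11 that passed the signal filter were those of Pspn, Bdnf, Fgf1, Cntfr and Gfra2 and the brighter of Gdnf. The means of Pspn and of Gfra2 at 92449_at on the deprived arrays were below the filter, so these were tested because of their non-deprived arrays. Adjusted over all tested probe sets, 1 of the 7 was lower in limma (Pspn) and 0 were higher, against 0.107% of the 7458 lower. At an unadjusted p under 0.05 in limma, 5 were lower and 0 higher, against 3.66% lower and 1.77% higher over the 7458. In a fit without the filter, 4 of the 11 were lower at an unadjusted p under 0.05, against 2.56% of the 12422, and 0 were higher, against 1.64%. Taking the brightest probe set of each gene, the 6 tested genes had a median log2 fold change of -0.79, beside 0.0015 over all 7458. In single pairs of arrays the median ranged from -0.88 to -0.72. The genes were put together with earlier results of these data known, so these counts describe them and are no test.

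Other genes of the same pathways were counted as whole lists, and those named below from a list are mostly its probe sets with the smallest p. Of 136 genes fixed in 6 lists, 93 had a probe set and 58 were tested, at 69 probe sets. None of the 69 passed after adjustment in limma. At an unadjusted p under 0.05, 2 were lower and 0 higher, a share of 2.90% lower. The median over the 58 genes was -0.05. On non-overlapping arrays 17 of the 69 were lower (24.6%) and 10 higher (14.5%), beside 17.1% and 15.1% of the 7458 tested.

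**Figure D3:**
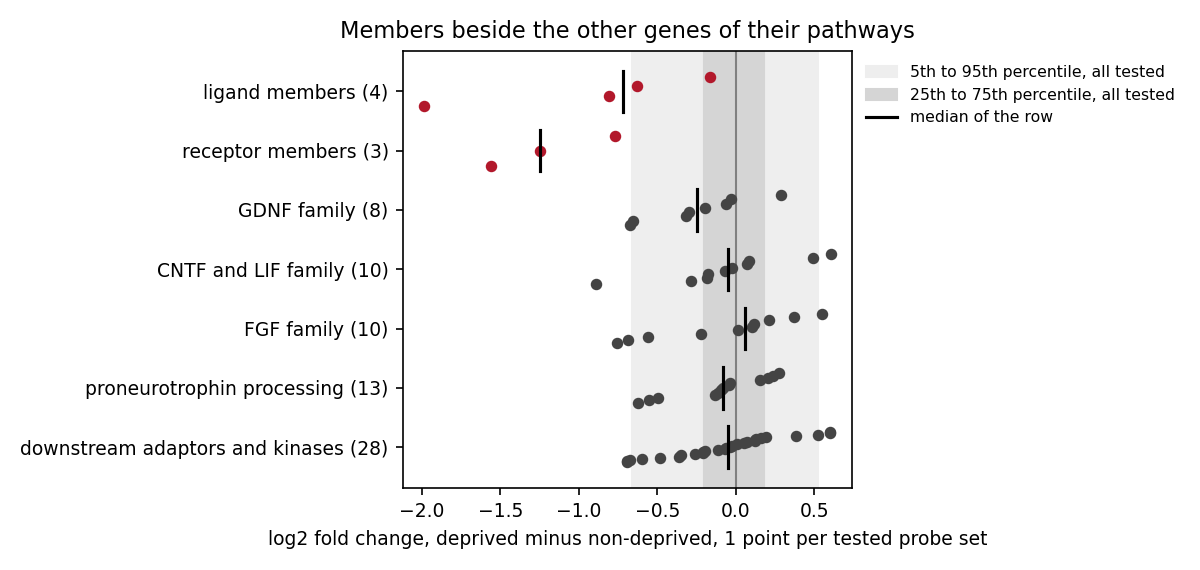
Log2 fold change of deprived minus non-deprived, 1 point per tested probe set, for the ligands and receptors of the set (red) and for the other genes of their pathways (dark grey), with the number of probe sets in brackets, the median of each row as a short line and the spread of all 7458 tested probe sets as grey bands. The 69 grey points lie between -0.89 and 0.61. All 3 receptor points, those of both Gfra2 probe sets and of Cntfr, lie at -0.77 or below.

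None of the tested partners of the GDNF family passed in limma. Of 8 further genes on the GDNF family list with a probe set, 7 were tested, with a median of -0.30. At their 8 probe sets, 0 had an unadjusted p under 0.05 in limma. That list also held genes outside the family proper, among them Ncam1, Sdc3, Gas1 and Manf. Nrtn, the gene of neurturin and so of the preferred ligand of GFRalpha2, had signals of 542 and 374 on the deprived arrays and 641 and 521 on the non-deprived arrays, and a log2 fold change of -0.32 ± 0.27 (SE). Its groups overlapped. Ret, the shared kinase, was at 77, 8.1, 30.2 and 11.2 on deprived arrays 1 and 2 and non-deprived arrays 1 and 2, too dim to test. Nrtn and Ret were named for their roles after their values were seen. Ncam1, an adhesion molecule that can also serve as a GDNF receptor, gave 0.29 ± 0.16 (SE) at its brightest probe set, with signals of 3258 and 3659 on the deprived arrays and 2834 and 2793 on the non-deprived arrays, so that both deprived arrays were higher. Artn (artemin) and Sdc3 (syndecan-3) gave -0.65 ± 0.50 and -0.68 ± 0.50, each with both deprived arrays below both non-deprived arrays.

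The further genes on the CNTF and LIF family list, which also held kinases and Stat3, had a median of 0.03 over 8 tested genes. Il6st, the gene of gp130 through which CNTFRalpha signals, had a pair of probe sets that differed, -0.89 ± 0.44 at the dimmer and -0.02 ± 0.34 at the brighter (SE). The kinase gene Jak2 and the interleukin-6 receptor gene Il6ra gave 0.61 ± 0.36 and 0.50 ± 0.38. Of the FGF family list, which also held Fibp and Fgfbp1, 8 of 22 genes on the array were tested, with a median of 0.11. The receptor gene Fgfr1 gave 0.55 ± 0.28, and the intracellular FGF homologues Fgf11 and Fgf13 gave -0.76 ± 0.39 and -0.56 ± 0.34. The other probe set of Fgf11, the brighter, gave 0.37 ± 0.27. None of these passed in limma, whether adjusted or at an unadjusted p under 0.05.

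The proneurotrophin processing list had a median of -0.09 over 11 tested genes. That list also held genes that are not processing enzymes, such as Bsg and Serpini1. The convertase gene Pcsk1 gave -0.63 ± 0.44, Pcsk6 -0.56 ± 0.50 and the protease inhibitor gene Serpini1 0.20 ± 0.18. Downstream of the receptors, 24 genes of adaptors and kinases had a median of -0.03. Both probe sets at an unadjusted p under 0.05 were in this list. Grb2, the adaptor that links receptor tyrosine kinases to Ras, had signals of 1233 and 1269 on the deprived arrays and 1822 and 2327 on the non-deprived arrays, a log2 fold change of -0.69 ± 0.18 (SE, adjusted p = 0.38 in limma). Pdpk1, a kinase that activates Akt, gave -0.67 ± 0.19 (adjusted p = 0.44) at its brighter probe set and 0.53 ± 0.42 at its dimmer. Pik3r1, the regulatory subunit of PI3-kinase, gave -0.36 ± 0.24. No further neurotrophin or neurotrophin receptor was analysed here.

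The profiles most like that of Bdnf over the 4 arrays were those of Efna3 (an ephrin), Sec11c (a signal peptidase subunit) and Pdpk1. Likeness was the root-mean-square distance between log2 values centred on their mean, and was 0.036 for Efna3, 0.038 for Sec11c and 0.041 for Pdpk1. Nearest to Pspn were Tollip (an adaptor of Toll-like receptor signalling), Src (a tyrosine kinase) and Syt1 (the calcium sensor of vesicle release), at 0.136, 0.155 and 0.158. These were the nearest of 6707 candidate probe sets, and 4 arrays give little to tell profiles apart.

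RNA quality and cell type markers moved as follows. For the actin controls the 5' signal divided by the 3' signal was 0.544 and 0.463 on the deprived arrays and 0.638 and 0.632 on the non-deprived arrays. For Gapdh it was 0.745 and 0.689 against 0.875 and 1.07. Both ratios were thus lower on both deprived arrays, as were 7 of the 11 probe sets of the set, and the part of RNA quality in these values was not tested. In pooled tissue, fewer cells of a type and less RNA per cell cannot be told apart. The summed signal of 9 marker genes of inhibitory neurons was 17691 and 20282 on the deprived arrays and 20630 and 22094 on the non-deprived arrays, and 6 of the 9 tested genes were lower. Its part in the results was not tested. The summed signals of excitatory neuron, astrocyte, oligodendrocyte, microglia, endothelial, choroid plexus and neighbouring-region markers overlapped between the groups. Single markers within these lists did not always overlap. Of 12 tested excitatory probe sets, 4 were lower without overlap and 1 higher, and of 11 inhibitory ones 3 and 2. Over all 7458 tested probe sets, 17.1% were lower and 15.1% higher in this way. Camk2a, a calcium-dependent kinase of excitatory neurons, gave -1.74 ± 0.43 and -0.62 ± 0.21 (SE) at its probe sets, with adjusted p of 0.29 and 0.59 in limma, and 0.032 at the first of these with the replicate block. Slc1a2, the glutamate transporter of astrocytes, gave -1.0 ± 0.33 (adjusted p = 0.58 in limma). Camk2a and Slc1a2 were the genes with the smallest p of their lists. Of 13 tested astrocyte probe sets, 2 were lower without overlap and 1 higher. The median log2 fold change was -0.03 over 9 astrocyte genes and -0.11 over 8 excitatory ones. The part of these markers in the results was not tested. All 8 excitatory cortical marker genes with a probe set passed the signal filter, against 2 of 4 for the choroid plexus. Of the striatum, thalamus and hippocampus markers, 7 of 10 passed it.

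**Figure D4:**
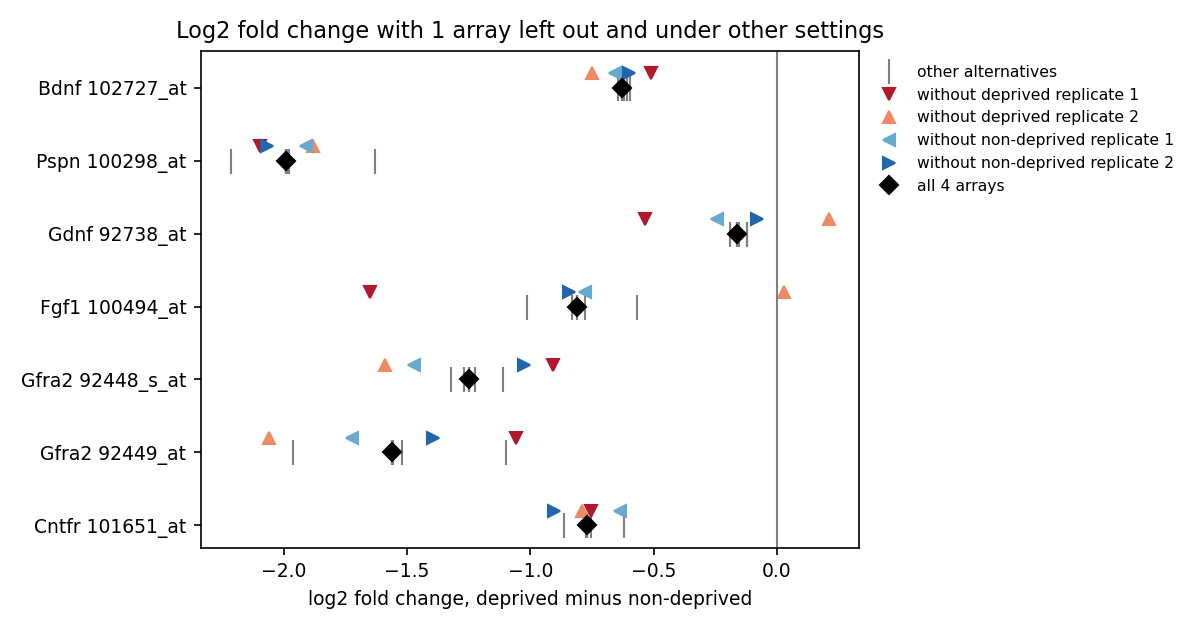
Log2 fold change of deprived minus non-deprived for the 7 tested probe sets with all 4 arrays (black diamonds), with 1 array left out (triangles) and under the other settings (grey ticks). Pspn, Bdnf, both Gfra2 probe sets and Cntfr stay below 0 throughout, and Fgf1 and Gdnf reach 0.030 and 0.21 without deprived array 2.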

How the data were processed

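RNA of 4 pooled cortex samples was hybridised to single-colour arrays from about 10 µg of total RNA each. The authors deposited linear intensities, 1 per probe set, from MAS5, per the submitters' processing notes. Version, detection calls and target are not given in the sources used here. MAS5 corrects each probe with its mismatch partner, which makes dim signals noisy. Arrays were brought to 1 common 2% trimmed mean, 60.6 (20th percentile of mean signals) was added and log2 taken. The deposited 2% trimmed means already lay between 500.28 and 500.36, so this scaling hardly changed the signals. Controls (66) and probe sets with a mean under 142.9 (40th percentile) were left out, and 7458 stayed. limma 3.58.1 in R 4.3.3 (lmFit, eBayes with trend) compared the groups, two-sided, with Benjamini-Hochberg adjustment and a threshold of 0.05. It had 2 residual degrees of freedom, 11.6 with the prior. An exact permutation test of 2 against 2 cannot go below 0.333. The fit was tested on simulated data.

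Of the probe sets, 10833 other than controls had 1 gene symbol, 396 several and 1237 none. Entrez identifiers matched 10817 of these to current symbols (RefSeq, GRCm38.p6), and 16 kept the annotated one. The design text speaks of cross-animal comparisons beside the others, which was read as same-numbered arrays sharing animals. How the mice were spread over the arrays is not given, so this reading is uncertain. The main fit left such a pairing out, and the replicate block was run as an alternative. The deviations of same-numbered arrays correlated with r = 0.271 over 7458 probe sets, which does not show whether they share animals. The members, lists and tests were chosen with earlier results of these data known. Named were all members, up to 3 probe sets of the smallest p per pathway list, the 3 profiles nearest to Bdnf and to Pspn, and the actin and Gapdh controls. Normalization, pseudocount, filter, variance model, replicate block and each array were varied.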

Additional observations from a re-analysis of the deposited data

How the results depend on the processing

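Among settings that kept all 4 arrays, the count of 1 tested probe set called became 0 with quantile normalization and with a stricter filter (60th percentile). It was also 0 without the mean-variance trend. The count became 2 with the replicate block, which added Gfra2 and changed no other call of the set. Leaving out single arrays changed calls too, and Pspn lost its call without either non-deprived array, as given above. Over all tested probe sets, 8 were called in the main fit. That number was 1 with quantile normalization, 6 with the stricter filter, 0 without the trend and 40 with the block. With 1 array left out, the log2 fold change of Pspn ran from -2.10 to -1.88. The count of 5 at an unadjusted p under 0.05 became 3 with the stricter filter and ran from 3 to 6 with 1 array left out, and the count of 5 tested probe sets whose arrays did not overlap became 3, as the stricter filter left 3 probe sets. The count of 4 at 1.5-fold in all pairs became 2 with a common median and with the stricter filter, and 1 at 2-fold. The cause was not tested other than where fewer probe sets were left. The median of -0.79 was -0.61 with the pseudocount raised to the 40th percentile, -0.94 with it lowered to the 5th and -1.25 with the stricter filter, and ran from -0.87 to -0.72 with 1 array left out. In fits with 1 array left out, the spread of the group with 1 array is taken from the other. There Fgf1 ran from -1.65 to 0.030 and Gdnf from -0.54 to 0.21, both above 0 only without deprived array 2. Of 80 values of single probe sets under an alternative, 70 kept their sign and call, 5 lost the call, 3 gained it and 2 changed sign. No scaling moved the median of all tested probe sets beyond 0.020. Low signal limits Gfra1, Ntrk3, Ntrk2 and the dimmer Gdnf probe set.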
